A study of Homo sapiens with 4 samples.

Results

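Chemokines and cytokines of the IL6 family were followed in MCF10A, an immortalised but non-tumorigenic line of human mammary epithelial cells. The set was CXCL1, CXCL2, CXCL3, CXCL8, CXCL16, CCL20, CCL2, IL6 and LIF, taken by symbol from the table of gene values, and all 9 had a line among 18840 genes. The 4 stable derivatives were sequenced as poly(A) RNA and carried pBabe-MYC, pBabe-miR-105, pBabe-GFP or the pBabe vector, with 1 library each. Every derivative shares the retroviral backbone, and all were kept in DMEM/F12 with hydrocortisone (an anti-inflammatory glucocorticoid), EGF, insulin, cholera toxin and horse serum. The GFP and vector libraries are the controls. With 1 library per construct no difference has a replicate check, and whether a derivative is a clone or a pool is not given in the sources used here.

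Chemokines are small secreted proteins that steer leukocytes along a concentration gradient. CXCL1, CXCL2, CXCL3 and CXCL8 carry the ELR motif ahead of their CXC cysteines and attract neutrophils through the G protein-coupled receptors CXCR2 and, for CXCL8 above all, CXCR1. CXCL16 is made as a membrane-bound adhesion molecule that ADAM10 can shed and is read by CXCR6, CCL20 attracts CCR6-bearing dendritic cells and T cells, and CCL2 attracts CCR2-bearing monocytes. IL6 and LIF signal through receptor chains that share gp130 and pass through JAK kinases to STAT3. Epithelial cells make many of these proteins when NF-kB is activated by IL1, TNF or bacterial products, and short-lived cytokine mRNAs often hold AU-rich repeats in their 3′ untranslated regions.

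Recovered read totals were 9795159 for the library labelled MYC, 6859698 for miR-105, 14025115 for GFP and 9138429 for vector, so that 1 read was worth 0.0948, 0.157, 0.0722 and 0.108 CPM, the depth-normalised unit used throughout. A count of 0 was taken to allow a level of up to 3 reads, which is 0.284, 0.471, 0.217 and 0.324 CPM in the same libraries. MYC mRNA, read as a check of the labels, stood at 232 CPM in the library labelled MYC, 463 CPM in the miR-105 library, 198 CPM in GFP and 207 CPM in vector. With the MYC label it was thus only 1.12-fold (1.05 to 1.19) over vector and 1.17-fold (1.11 to 1.24) over GFP. With the miR-105 label it was 2.24-fold (2.11 to 2.37) and 2.34-fold (2.22 to 2.46) over them. The highest level therefore went against the label. Each direction given here belongs to the library labelled MYC and not to a large measured excess of MYC mRNA. Of 13 epithelial marker genes with a line, all reached a mean of 1 CPM, and their summed level was 10689, 16215, 16559 and 17241 CPM in MYC, miR-105, GFP and vector. The keratin KRT8 was not analysed here. Levels are given with exact Poisson 95% intervals and ratios with exact conditional binomial (Clopper-Pearson) 95% intervals. Both cover counting error alone, since the reads carry no molecular identifiers and may repeat a molecule, and 1 library gives no spread between cultures.

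The 4 ELR chemokines lie in 1 cluster on chromosome 4, and stretches just upstream of their start sites are shown because these genes include the members that differed most from the controls. Each line is 70 bases of the gene's own strand, 5′ to 3′, from 133 to 64 bases before the RefSeq start on GRCh38.p14. Capitals mark a match to the motif GGAATTTCC, to the NF-kB consensus, or to both where they overlap. CXCL1 is from chr4:73869260-73869329 (plus strand), CXCL2 from chr4:74099259-74099328 (minus), CXCL3 from chr4:74038753-74038822 (minus) and CXCL8 from chr4:73740436-73740505 (plus). CCL20, from chr2:227813709-227813778 (plus), and IL6, from chr7:22727067-22727136 (plus), are shown beside them as members that did not differ in the same way.
CXCL1: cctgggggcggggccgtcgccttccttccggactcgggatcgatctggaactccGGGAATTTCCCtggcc
CXCL2: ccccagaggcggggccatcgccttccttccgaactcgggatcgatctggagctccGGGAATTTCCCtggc
CXCL3: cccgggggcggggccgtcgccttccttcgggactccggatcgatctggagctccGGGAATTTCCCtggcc
CXCL8: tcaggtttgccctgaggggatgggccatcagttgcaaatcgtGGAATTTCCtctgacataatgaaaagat
CCL20: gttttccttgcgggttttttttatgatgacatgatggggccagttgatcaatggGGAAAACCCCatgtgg
IL6: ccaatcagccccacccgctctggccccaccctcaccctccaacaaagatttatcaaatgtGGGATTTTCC

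The 250 bases upstream were searched on both strands in the 6 members with a promoter sequence. GGAATTTCC occurred in CXCL1, CXCL2, CXCL3 and CXCL8, against 145 of 35116 promoters (0.413%) of the same length. The NF-kB consensus occurred in CXCL1, CXCL2, CXCL3, CCL20 and IL6, against 3498 promoters (9.96%), and in the CXCL1, CXCL2 and CXCL3 windows it overlaps the shorter motif. GGAATTTCC fits the consensus as searched apart from its leading G, and CXCL8 has a T in that place. The absence of CXCL8 from this count thus does not show that it lacks an NF-kB site. TGANTCA, the AP-1 motif, was found in CXCL8 and in 6.57% of promoters, and TTGCNNAA, a C/EBP motif, in CXCL2 and IL6 and in 9.05% of promoters. CACGTG, the E-box bound by MYC and MAX, was in 0 of the 6 members searched and in 6.34% of promoters. CXCL1, CXCL2 and CXCL3 are alike across the whole stretch: their upstream 250 bases aligned with 67.9% (CXCL1 with CXCL2), 81.4% (CXCL1 with CXCL3) and 73.3% (CXCL2 with CXCL3) identity, whereas CXCL8 aligned with each of them at 39.7% to 41.5%. Matches in such similar stretches are not independent of one another. CXCL16, CCL2 and LIF had no promoter sequence to search. A match describes letters and is no evidence of binding, and the part of these motifs in the levels was not tested.

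Of the 9 genes, 7 reached a mean of 1 CPM over the 4 libraries and were compared on the log2(CPM + 0.5) scale, and CCL2 and IL6 did not. In the library labelled MYC, 4 of these 7 were at least 2-fold above both controls, CXCL1, CXCL2, CXCL3 and CXCL8, and 0 were at least 2-fold below both. Without the filter CCL2 made 5 of the 9, beside 1327 of all 18840 genes. The same thresholds were passed by 1127 of the 12484 genes averaging 1 CPM or more (9.03%) upward and by 1299 (10.4%) downward. In the miR-105 library CXCL2 and CXCL3 were at least 2-fold above both controls and CXCL16 was at least 2-fold below both, beside 1833 genes (14.7%) higher and 2071 (16.6%) lower. Between GFP and vector, 0 of the 9 passed 2-fold in either direction on the scale with 0.5 CPM added, beside 382 genes (3.06%) higher and 128 (1.03%) lower in GFP. By plain CPM ratio CXCL3 was 2.24-fold (0.532 to 10.8) lower in GFP than in vector, on 4 and 6 reads. CXCL2 and CXCL3 were under 1 CPM in both controls, so they passed that filter through the libraries in which they were high. The same holds for CXCR1, IL31RA, CISH and LTB among the related genes below, so that counts and medians over the genes that passed the filter lend no support by themselves.

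**Figure D1:**
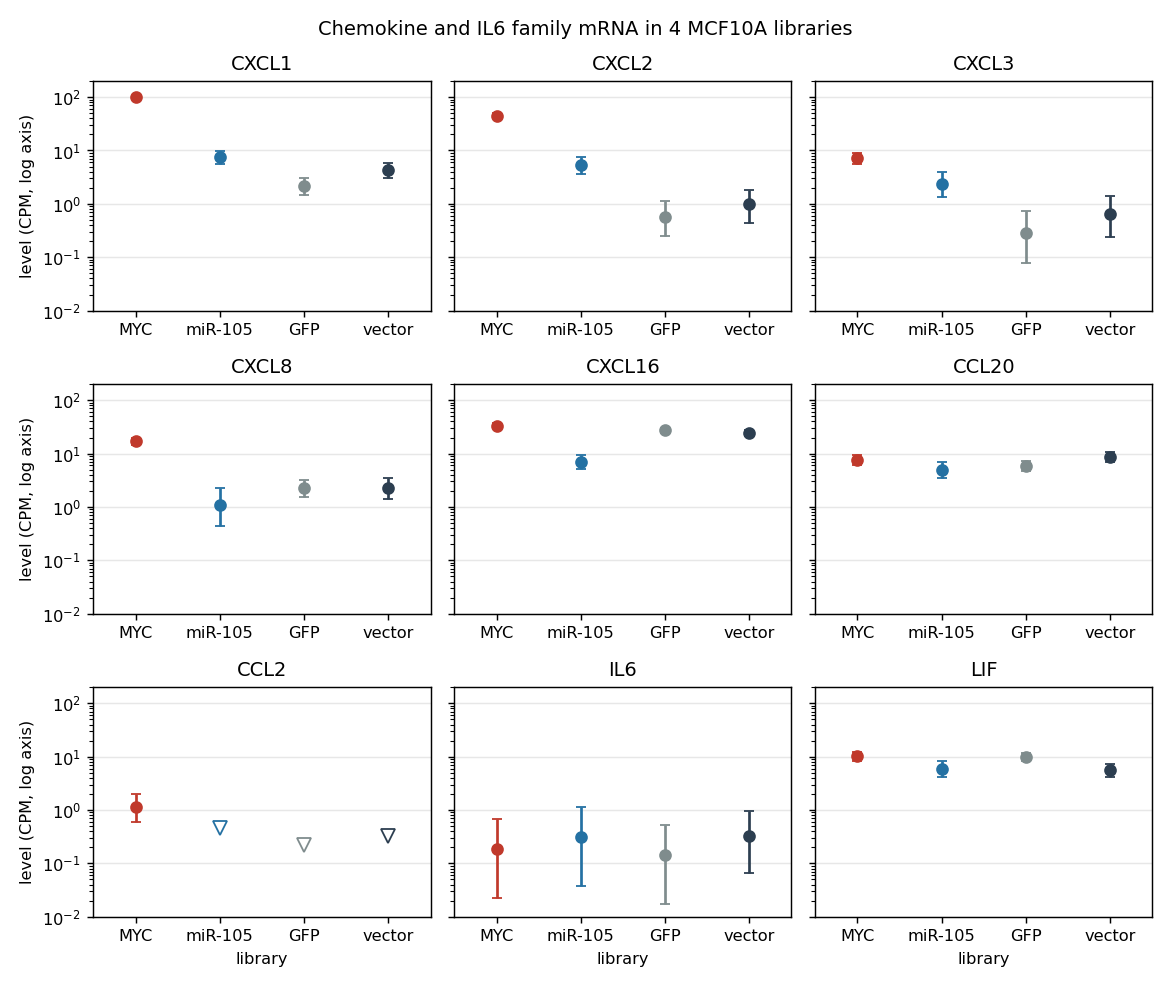
Level of each gene in CPM on a log axis in the libraries labelled MYC, miR-105, GFP and vector, with exact Poisson 95% counting intervals; open triangles mark libraries with 0 reads, drawn at the limit of 3 reads. CXCL1, CXCL2, CXCL3 and CXCL8 stand highest in the MYC library, CXCL16 stands lowest in the miR-105 library, and IL6 rests on 2 or 3 reads throughout.

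CXCL1, the archetypal growth-regulated oncogene chemokine (chr4:73869393-73871242, plus strand, GRCh38), had 98.8 CPM in the MYC library (1042 reads, interval 92.9 to 104.97), 7.53 in miR-105 (48 reads, 5.55 to 9.98), 2.17 in GFP (30 reads, 1.46 to 3.09) and 4.32 in vector (40 reads, 3.09 to 5.89). The MYC library lay above the other 3 without any overlap of intervals, miR-105 and vector overlapped, and so did vector and GFP at the edge. Against vector and GFP, CXCL1 was 22.8-fold (16.7 to 32.2) and 45.6-fold (31.7 to 67.9) higher with the MYC label. With the miR-105 label it was 1.74-fold (1.12 to 2.72) and 3.47-fold (2.16 to 5.68) higher, which passed 2-fold over GFP but not over vector. The controls themselves differed, with CXCL1 1.995-fold (1.21 to 3.32) lower in GFP than in vector, a gap about as large as that between miR-105 and vector.

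CXCL2, also called MIP-2 alpha (chr4:74097035-74099293, minus strand), stood at 45.1 CPM in the MYC library (476 reads, interval 41.2 to 49.4), at 5.33 CPM in miR-105 (34 reads, 3.69 to 7.45), and at 0.578 (8 reads) and 0.973 CPM (9 reads) in GFP and vector. The intervals of MYC, miR-105 and the controls were apart from one another, while those of GFP (0.249 to 1.14) and vector (0.445 to 1.85) overlapped. CXCL2 was 46.4-fold (24.2 to 102) over vector and 78.1-fold (39.3 to 182) over GFP in the MYC library. In miR-105 the ratios were 5.48 (2.57 to 12.99) and 9.23 (4.19 to 23.1). By the smaller of its pair of log2 folds, 4.95, CXCL2 ranked 40th from the top of 12484 genes in the MYC library, CXCL1 ranked 65th with 4.36, CXCL3 236th with 2.73 and CXCL8 244th with 2.66.

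CXCL3, or MIP-2 beta (chr4:74036589-74038807, minus strand), was much scarcer. It had 7.11 CPM in the MYC library (75 reads), 2.35 in miR-105 (15 reads), 0.289 in GFP (4 reads) and 0.649 in vector (6 reads). Its order matched that of CXCL1 and CXCL2, though the interval in miR-105 (1.32 to 3.88) touched that of vector (0.238 to 1.41). The ratios were 10.96 (4.81 to 30.8) to vector and 24.6 (9.22 to 92.7) to GFP with the MYC label, and 3.63 (1.33 to 11.4) and 8.14 (2.59 to 33.7) with the miR-105 label. Its coding sequence is close to those of its neighbours: CXCL1 and CXCL2 align at 93.5% identity, CXCL1 and CXCL3 at 90.7%, and CXCL2 and CXCL3 at 94.4%. Of all 50-base windows of the transcript, 5.73% of CXCL1, 9.24% of CXCL2 and 5.26% of CXCL3 occur unchanged in another of these genes. CXCL8 shares no such window. A part of the reads of CXCL1, CXCL2 and CXCL3 thus cannot be assigned with certainty. These shares do not bound the uncertainty of a scarce gene beside an abundant one. In CXCL2, with 476 reads in the MYC library against 75 for CXCL3, 4.62% of windows occur in CXCL3. Windows that match with differences were not counted.

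CXCL8, interleukin 8 (chr4:73740506-73743716, plus strand), followed another pattern. It had 17.0 CPM in the MYC library (179 reads, interval 14.6 to 19.6), 1.10 in miR-105 (7 reads, 0.441 to 2.26), 2.24 in GFP (31 reads) and 2.27 in vector (21 reads). The controls differed by 1.01-fold. In the MYC library CXCL8 was 7.475-fold (4.74 to 12.4) over vector and 7.58-fold (5.15 to 11.5) over GFP. In miR-105 it was 2.07-fold (0.847 to 5.76) and 2.04-fold (0.881 to 5.49) lower, intervals that include no difference, and on the scale with 0.5 CPM added it stayed inside 2-fold. CXCL8 was thus the only one of the 4 ELR chemokines in the set whose miR-105 value lay below both controls, on 7 reads.

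**Figure D2:**
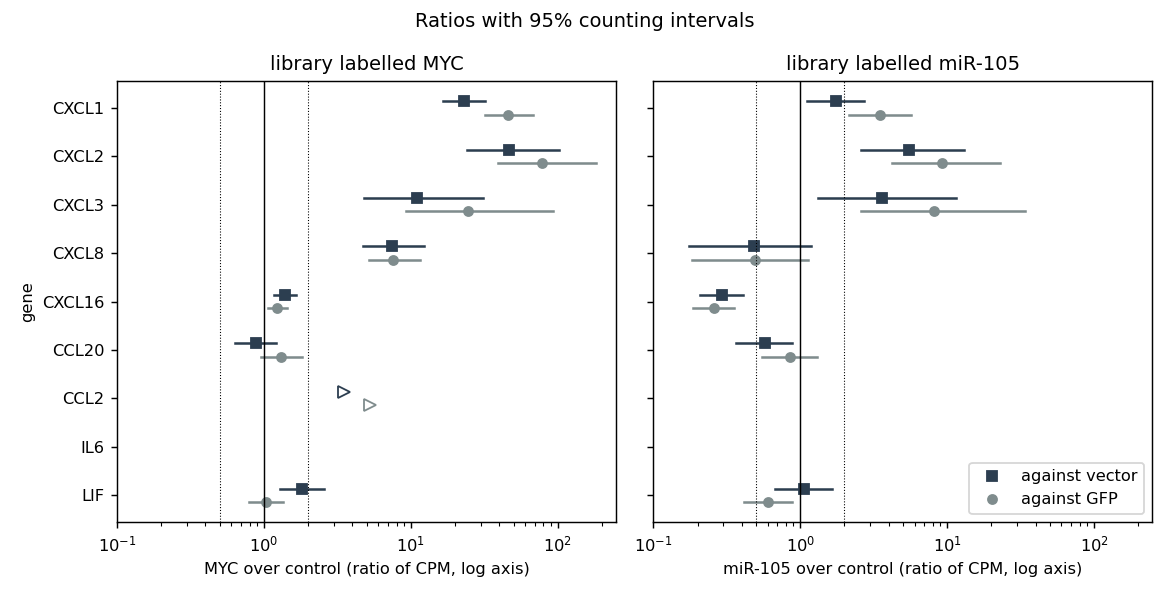
Ratio of CPM in the libraries labelled MYC (left) and miR-105 (right) to the vector library (squares) and the GFP library (circles), with 95% counting intervals on a log axis. Open triangles are lower bounds for CCL2, no ratio is drawn where both libraries were at or under 3 reads, and dotted lines mark 2-fold. All ratios of CXCL1, CXCL2, CXCL3 and CXCL8 in the MYC library exceed 7, and both CXCL16 ratios in miR-105 lie under 0.5.

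Added together, CXCL1, CXCL2, CXCL3 and CXCL8 came to 168 CPM in the MYC library (1772 reads), 16.3 in miR-105 (104 reads), 5.27 in GFP (73 reads) and 8.22 in vector (76 reads). Per kilobase of transcript, CXCL1 was the most abundant member in the MYC library at 90.1 CPM per kb, followed by CXCL2 at 37.1, CXCL16 at 15.0, CXCL8 at 9.95, CCL20 at 9.60, CXCL3 at 6.61, LIF at 2.56, CCL2 at 1.54 and IL6 at 0.124 CPM per kb. In vector the order per kilobase was led by CCL20 at 10.9 and CXCL16 at 10.8 CPM per kb, with CXCL1 at 3.94. Fewer cells with a transcript and less of it in each cell cannot be told apart in bulk RNA.

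The chromosome 4 cluster holds 9 coding genes over 358788 bases, in the order CXCL8, CXCL6, PF4V1, CXCL1, PF4, PPBP, CXCL5, CXCL3 and CXCL2. The other 5 did not share the levels of the 4 members. CXCL6, whose product is a neutrophil attractant too, had 1 read in all, in the vector library. CXCL5, its close relative, stood at 1.04 CPM in the MYC library (11 reads), 1.41 in miR-105 (9 reads), 0.361 in GFP (5 reads) and 1.51 in vector (14 reads). The platelet chemokine genes PF4, PF4V1 and PPBP had 0 reads in the MYC library, and in the other libraries their highest count was the 9 reads of PPBP in miR-105. High levels in the MYC library therefore stood at both ends of the cluster and at CXCL1 within it, with genes at or under 1.04 CPM between them.

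**Figure D3:**
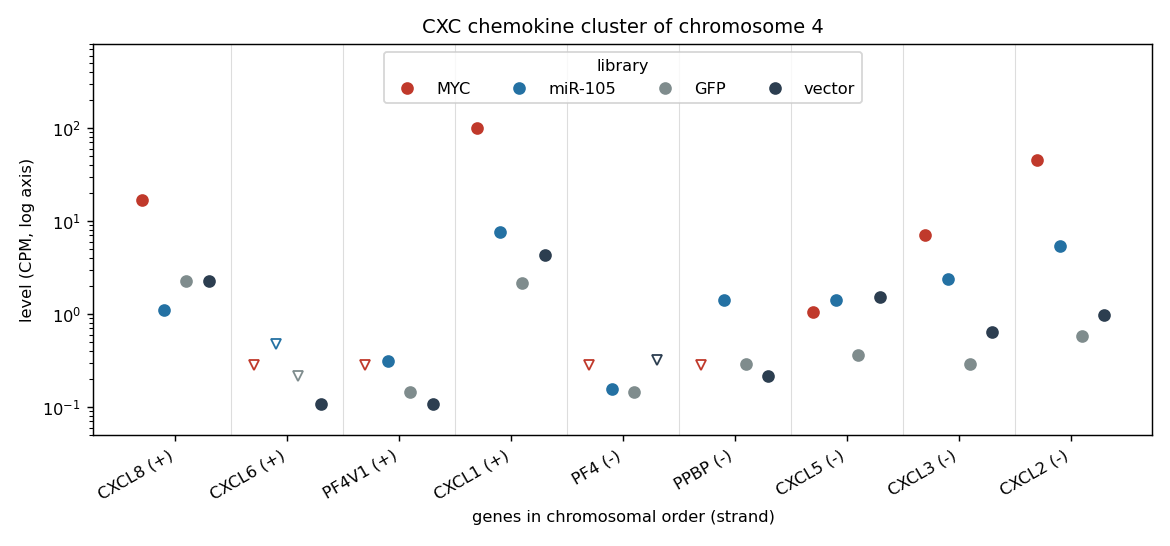
Level in CPM, on a log axis, of the 9 coding genes of the chromosome 4 CXC chemokine cluster in chromosomal order with the strand in brackets, for the libraries labelled MYC, miR-105, GFP and vector; open triangles mark 0 reads at the limit of 3 reads. CXCL8, CXCL1, CXCL3 and CXCL2 exceed 7 CPM in the MYC library, while the other genes stay under 1.6 CPM in every library.

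CXCL16 (chr17:4733526-4739922, minus strand) was the only measured member at least 2-fold below both controls with the miR-105 label, beside 16.6% of all genes. It had 33.4 CPM in the MYC library (352 reads, interval 29.98 to 37.0), 7.06 in miR-105 (45 reads, 5.15 to 9.44), 27.1 in GFP (375 reads, 24.4 to 29.97) and 24.0 in vector (222 reads, 20.9 to 27.4). The miR-105 library lay below the other 3 with no overlap, and the controls overlapped. CXCL16 was 3.40-fold (2.46 to 4.80) lower in miR-105 than in vector and 3.84-fold (2.81 to 5.35) lower than in GFP, and it ranked 1069th from the bottom of 12484 genes. In the MYC library it was 1.39-fold (1.17 to 1.65) over vector and 1.23-fold (1.06 to 1.43) over GFP, short of 2-fold. ADAM10, the protease that sheds CXCL16, stood at 90.3 CPM in MYC, 128 in miR-105, 157 in GFP and 112 in vector, and ADAM17 at 62.4, 63.4, 50.4 and 39.1 CPM in the same order.

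CCL20 (chr2:227805739-227817564, plus strand) differed little. It had 7.68 CPM in the MYC library (81 reads), 5.02 in miR-105 (32 reads), 5.85 in GFP (81 reads) and 8.76 in vector (81 reads). The MYC value lay between the controls, which themselves differed 1.497-fold (1.09 to 2.06, lower in GFP), so its direction depended on the control. In miR-105 CCL20 was 1.74-fold (1.15 to 2.72) lower than in vector and 1.17-fold (0.765 to 1.81) lower than in GFP.

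CCL2 (chr17:34255218-34257203, plus strand) was read in the MYC library alone, with 12 reads or 1.14 CPM (0.588 to 1.99), and had 0 reads in miR-105, GFP and vector. Against the floor of 3 reads in the control, it was at least 3.51-fold higher than in vector and at least 5.25-fold higher than in GFP, and the exact 95% lower limits of those ratios were 2.44 and 3.65. In miR-105, the library of least depth, the limit of 3 reads puts CCL2 at up to 0.471 CPM, and its exact 95% interval reaches 0.579 CPM.

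IL6 and LIF are the IL6 family members of the set. IL6 (chr7:22725884-22732002, plus strand) was close to the detection limit, with 2 reads in MYC, 2 in miR-105, 2 in GFP and 3 in vector, between 0.144 and 0.324 CPM, and no ratio is given. LIF, the leukemia inhibitory factor (chr22:30240447-30246851, minus strand), had 10.1 CPM in the MYC library (107 reads, interval 8.31 to 12.3), 5.96 in miR-105 (38 reads, 4.22 to 8.18), 9.82 in GFP (136 reads, 8.24 to 11.6) and 5.62 in vector (52 reads, 4.198 to 7.37). The values formed an upper pair, MYC with GFP, and a lower pair, miR-105 with vector. LIF was 1.80-fold (1.28 to 2.56) over vector and 1.03-fold (0.794 to 1.34) over GFP with the MYC label, while GFP itself was 1.75-fold (1.26 to 2.45) over vector. With the miR-105 label it was 1.06-fold (0.679 to 1.64) over vector and 1.65-fold (1.14 to 2.43) lower than in GFP, so its direction depended on the control.

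**Figure D4:**
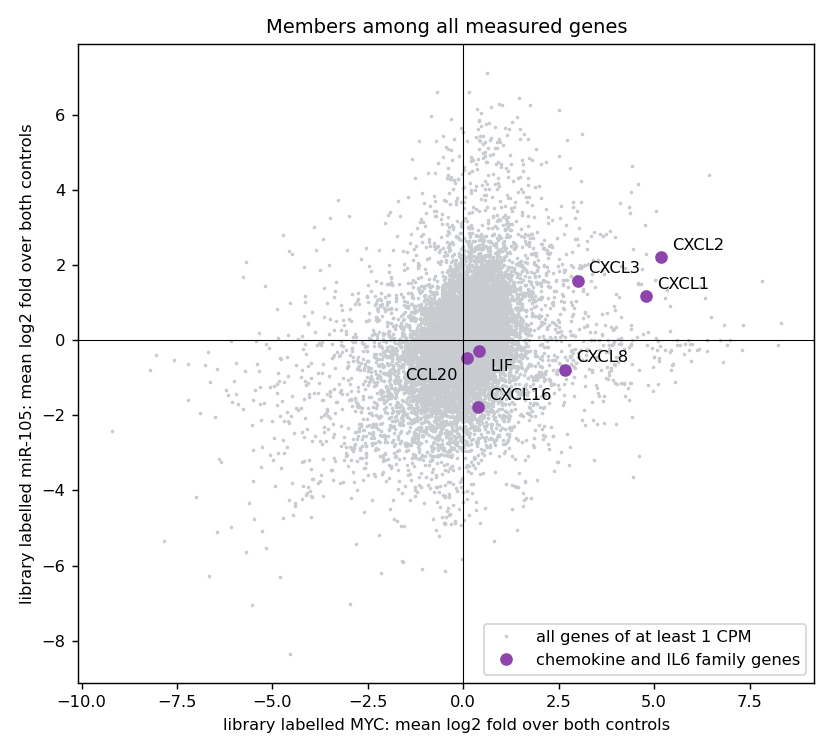
Mean log2 fold over both controls, on the log2(CPM + 0.5) scale, in the library labelled MYC (x axis) and in the library labelled miR-105 (y axis) for 12484 genes averaging 1 CPM or more (grey) and the 7 members among them (purple). Both axes use the same controls, so the cloud as a whole is not independent between them; CXCL1, CXCL2 and CXCL3 lie in the upper right, CXCL8 to the right and below 0, and CXCL16 below 0.

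The same controls serve both constructs, so the library labelled MYC was also set directly against miR-105. CXCL8 was 15.5-fold (7.35 to 39.0) higher in the MYC library than in miR-105, CXCL1 13.1-fold (9.82 to 17.9), CXCL2 8.46-fold (5.97 to 12.4), CXCL16 4.73-fold (3.46 to 6.60) and CXCL3 3.02-fold (1.72 to 5.67). LIF was 1.70-fold (1.17 to 2.53) and CCL20 1.53-fold (1.00 to 2.38) higher in MYC, and CCL2 at least 2.42-fold, with an exact lower limit of 1.68. Every member with a ratio thus stood higher in the library labelled MYC than in miR-105.

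Likeness of pattern was measured as the Euclidean distance between genes' log2(CPM + 0.5) values after each gene was centred over the 4 libraries, for 12484 genes. With 4 points from shared libraries it is a description of shape. CXCL1 was nearest to CDH13 (T-cadherin, distance 0.43), IFI44L (0.43) and the calprotectin subunit S100A8 (0.61), and CXCL2 to NLRC5 (0.45), CDH13 (0.51) and CXCR1 (0.70). Among the other 12483 genes CXCL1 was the 9th nearest to CXCL2, and CXCL2 the 13th nearest to CXCL1. The other ELR chemokines were less alike. CXCL3 was the 124th nearest to CXCL1 and the 58th to CXCL2, and CXCL8 the 241st and 370th. Seen from CXCL3, CXCL1 and CXCL2 were the 661st and 774th nearest. Seen from CXCL8 they were the 1939th and 6293rd, and CXCL16 was the 1135th. CXCL3 was nearest to ASAH2B (0.17), SLC39A8 (0.29) and GJA3 (0.32), and CXCL8 to SLC9A9 (0.14), the bacterial peptidoglycan sensor NOD2 (0.19) and RASSF9 (0.24). CXCL16 lay nearest to FOXO6, CCDC13 and PARK2 (0.11 each), CCL20 to SEPT5, MPG and ERGIC3 (0.08 to 0.09), and LIF to DSP, TAF1 (0.034 each) and ARHGAP5 (0.070). For CXCL1, CXCL2, CXCL3, CXCL8, CXCL16 and CCL20 the nearest genes include some under 5 CPM in 3 or all 4 libraries, where single reads weigh on the shape.

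Receptors for the set were read next. CXCR1 had 15.6 CPM in the MYC library (165 reads), 1.41 in miR-105 (9 reads), 0.144 in GFP (2 reads) and 0.216 in vector (2 reads), and was at least 2-fold above both controls in both. CXCR2 had 29 reads in MYC, 3 in miR-105, 0 in GFP and 1 in vector, below a mean of 1 CPM. The receptors of CXCL16, CCL20 and CCL2 were scarce. CXCR6 had 2, 3, 6 and 0 reads in MYC, miR-105, GFP and vector. CCR6 had 2, 0, 1 and 3, and CCR2 had 0 in all. Of 22 chemokine receptors 4 reached a mean of 1 CPM, and CXCR4, the receptor of CXCL12, differed in opposite directions. It had 66.4 CPM in MYC, 0.941 in miR-105, 4.55 in GFP and 7.35 in vector, so that it was 9.03-fold and 14.6-fold over vector and GFP with the MYC label and 7.81-fold and 4.84-fold lower with the miR-105 label. For these 4, of which CXCR1 passed the filter through the MYC library, the median log2 fold was 2.29 in MYC and −1.33 in miR-105, beside 0.04 and 0.01 over all genes. Without the filter on low values the median of the receptors was 0.0097 in MYC and −0.15 in miR-105.

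Chemokines outside the set were mostly silent. Of 29 others, 8 had 0 reads in every library and 2 reached a mean of 1 CPM. CCL28, a mucosal chemokine, had 8.34 CPM in MYC, 2.82 in miR-105, 3.61 in GFP and 3.24 in vector, and was 2.57-fold over vector and 2.31-fold over GFP with the MYC label. CXCL5 passed 2-fold over both controls in neither library.

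The other IL6 family cytokines gave values in opposite directions. Of 7, 4 reached a mean of 1 CPM. CLCF1, a B cell stimulating cytokine, was at 2.94 CPM in MYC, 39.8 in miR-105, 29.2 in GFP and 24.8 in vector, which made it 8.42-fold and 9.93-fold lower than vector and GFP with the MYC label. CNTF, the ciliary neurotrophic factor, was at 5.02, 3.76, 1.37 and 0.649 CPM in the same order of libraries, 7.75-fold over vector and 3.66-fold over GFP in MYC and 5.803-fold and 2.74-fold in miR-105. The annotation also holds the readthrough gene ZFP91-CNTF over CNTF, so the reads of CNTF are uncertain. IL11 was at 4.27 CPM in MYC, 1.57 in miR-105, 5.56 in GFP and 4.97 in vector, and CTF1 had 31 reads in MYC, 0 in miR-105, 30 in GFP and 40 in vector; both were at least 2-fold lower in miR-105. The median log2 fold of the 4 was −0.17 in MYC and −0.46 in miR-105, and neither held its sign: the first was 0.0099 with GFP alone as control and −2.99 with a filter of 5 CPM, and the second was 0.56 with that filter.

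IL6 family receptors were higher in the MYC library in 4 of 5 measured genes, 0 were lower, and the median log2 fold was 2.41, beside 9.03% higher, 10.4% lower and a median of 0.04 over all genes. IL6R, the ligand-binding chain for IL6, had 177 CPM in MYC, 22.7 in miR-105, 32.9 in GFP and 33.2 in vector, and was 5.34-fold over vector and 5.38-fold over GFP with the MYC label. LIFR, the LIF receptor chain, had 113, 11.6, 19.5 and 11.4 CPM in that order, 9.96-fold over vector and 5.799-fold over GFP in MYC. IL27RA, a receptor chain for IL27, was at 46.9 CPM in MYC, 11.1 in miR-105, 1.37 in GFP and 2.05 in vector, and IL31RA at 2.84, 3.76, 0.361 and 0.216 CPM, so that both were at least 2-fold higher with either label. IL31RA was under 1 CPM in both controls and passed the filter through the libraries in which it was high. OSMR, which pairs with gp130 for oncostatin M, stood at 253 CPM in MYC, 144 in miR-105, 172 in GFP and 95.4 in vector and did not pass 2-fold over GFP. CNTFR was below a mean of 1 CPM, and IL6ST, which encodes gp130, and IL11RA were not analysed here. In miR-105 2 of the 5 were higher and 0 lower, beside 14.7% and 16.6% of all genes, and the median was 0.17, −0.26 with GFP alone as control and −0.09 with a filter of 5 CPM.

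**Figure D5:**
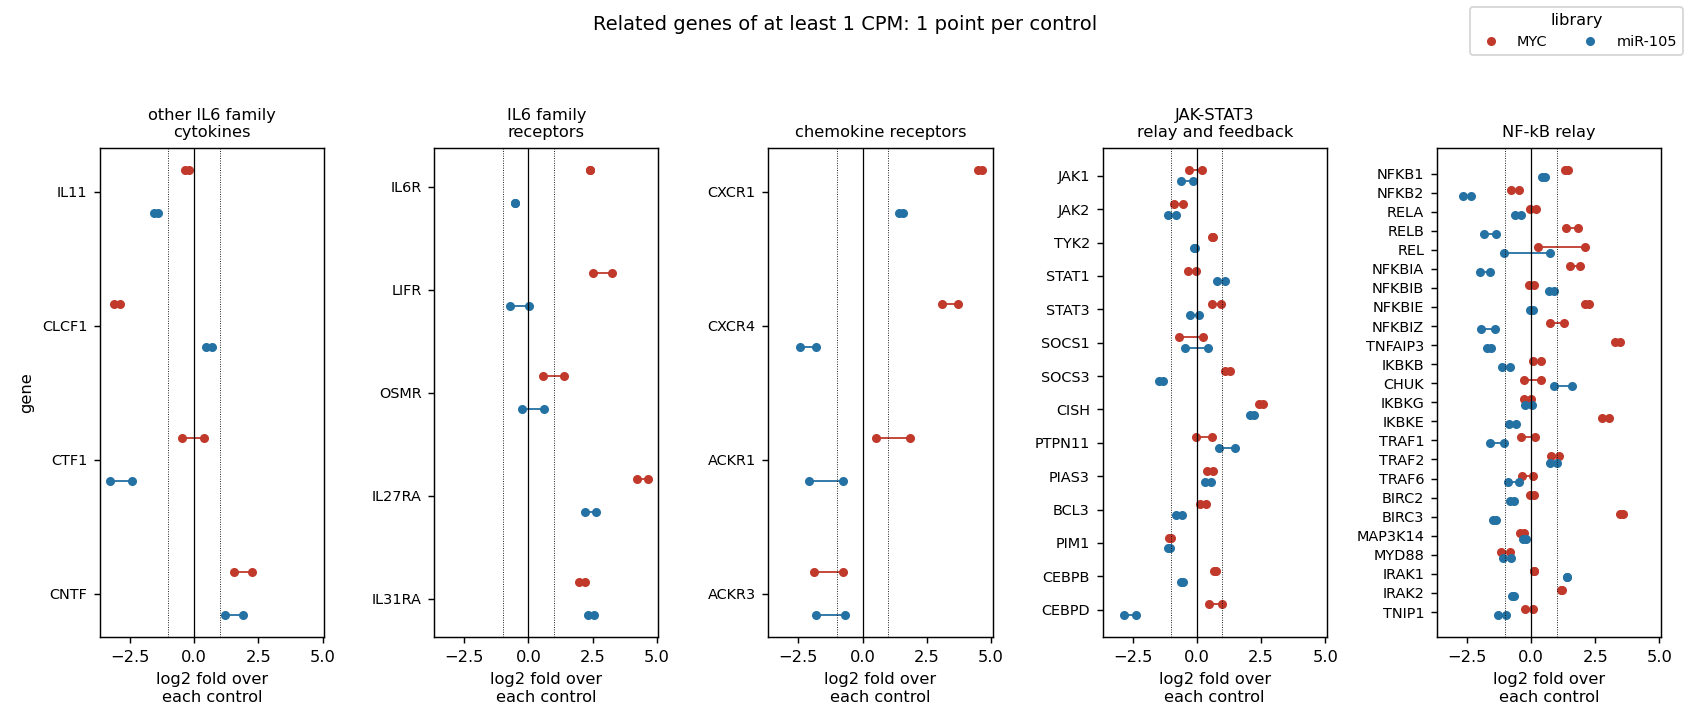
Log2 fold, on the log2(CPM + 0.5) scale, in the libraries labelled MYC (red) and miR-105 (blue) over each control, 1 point per control joined by a line, for the genes of 5 related lists averaging 1 CPM or more; dotted lines mark 2-fold. In the NF-kB list 8 of 24 genes lie beyond 2-fold above both controls in MYC and 7 lie beyond 2-fold below both in miR-105.

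Downstream of gp130, 14 genes of the JAK-STAT3 relay and its feedback were measured. In the MYC library 2 were at least 2-fold higher and 1 lower, and the median log2 fold was 0.40. In miR-105 1 was higher and 3 lower, with a median of −0.25. Among all genes 9.03% were higher and 10.4% lower in MYC, and 14.7% higher and 16.6% lower in miR-105. SOCS3, the STAT3-induced inhibitor of gp130 signalling, had 22.6 CPM in MYC, 3.29 in miR-105, 8.96 in GFP and 10.2 in vector, 2.22-fold and 2.52-fold over vector and GFP with the MYC label and 3.09-fold and 2.72-fold lower with the miR-105 label. CISH, a SOCS family member induced by STAT5, had 5.69, 4.39, 0.650 and 0.541 CPM and was higher with both labels, whereas the kinase gene PIM1, at 12.6, 12.2, 26.0 and 27.0 CPM, was lower with both. CEBPD, a C/EBP factor induced by STAT3, had 242 CPM in MYC, 23.5 in miR-105, 124 in GFP and 173 in vector, and was 7.36-fold and 5.25-fold lower than vector and GFP in miR-105. STAT3 itself had 361 CPM in MYC, 197 in miR-105, 238 in GFP and 188 in vector and did not pass 2-fold.

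Genes of the NF-kB relay differed from the controls in other directions in MYC than in miR-105. Of 24 genes, 8 were at least 2-fold higher and 0 lower in MYC, where the median log2 fold was 0.16, while 1 was higher and 7 lower in miR-105, with a median of −0.72. Over all genes the shares were 9.03% higher and 10.4% lower in MYC, and 14.7% higher and 16.6% lower in miR-105. The ubiquitin ligase gene BIRC3 had 1568 CPM in MYC, 50.5 in miR-105, 140 in GFP and 131 in vector, 11.99-fold and 11.2-fold over vector and GFP with the MYC label. TNFAIP3, which encodes the feedback inhibitor A20, had 236 CPM in MYC, 6.90 in miR-105, 24.1 in GFP and 21.1 in vector, 11.2-fold and 9.81-fold higher with the MYC label and 3.05-fold and 3.49-fold lower with the miR-105 label. NFKBIA, the gene of the inhibitor IkB alpha, had 514, 44.7, 137 and 178 CPM in the same order, and the kinase gene IKBKE had 68.2, 5.02, 9.54 and 7.78 CPM. Other genes higher in MYC were NFKBIE, NFKB1, RELB and IRAK2. NFKB2 had 163 CPM in MYC, 44.2 in miR-105, 225 in GFP and 279 in vector, and NFKBIZ, which encodes a nuclear cofactor needed for a subset of NF-kB targets, had 76.3, 11.6, 45.7 and 31.4 CPM; both were lower in miR-105, as were RELB, NFKBIA, TRAF1 and BIRC3. IRAK1 was the gene of the list that was higher there, at 438 CPM in miR-105 against 163 in GFP and 164 in vector. Several of these genes are themselves known NF-kB targets.

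Among 12 measured upstream cytokines and receptors, 2 were at least 2-fold higher and 4 lower in the MYC library, beside 9.03% and 10.4% of all genes. The median log2 fold there was −0.10 and became 0.0068 when library totals alone set the scale and 0.02 with vector alone as control. In the miR-105 library 0 were higher and 3 lower, beside 14.7% and 16.6% of all genes, with a median of −0.59. IL1A, an epithelial alarmin, had 17.6 CPM in MYC, 1.41 in miR-105, 0.722 in GFP and 1.73 in vector. LTB, a TNF family member, had 81 reads in MYC, 0 in miR-105, 1 in GFP and 0 in vector, and so passed the filter on low values only through the MYC library. IL1B and TNF stayed below a mean of 1 CPM, with 31, 2, 1 and 0 reads and with 10, 0, 1 and 3 reads in MYC, miR-105, GFP and vector. Of the bacterial sensor genes, TLR2 had 1.61 CPM in MYC, 25.9 in miR-105, 82.1 in GFP and 87.0 in vector, and TLR4 had 1.23, 5.33, 28.97 and 14.1 CPM. Both were at least 2-fold lower with both labels, as was IL18. IL1RN was lower with the MYC label alone, at 0.853 CPM in MYC, 8.31 in miR-105, 8.74 in GFP and 10.8 in vector. IL17RC was not analysed here.

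Genes that act on cytokine mRNA decay were read because all 9 members hold the pentamer ATTTA in the annotated 3′ untranslated region, as do 64.5% of 18918 such regions. The copies numbered 10 in CXCL2, 9 in CXCL8, 7 in CXCL3 and LIF, 6 in IL6, 5 in CXCL1, 3 in CCL20 and 1 in CXCL16 and CCL2. The overlapping nonamer ATTTATTTA was found in CXCL2 (4 copies), CXCL1 (2) and CXCL8 (1), beside 6.34% of all regions. ZC3H12A, whose product Regnase-1 cleaves cytokine mRNAs, had 133 CPM in MYC, 16.9 in miR-105, 47.8 in GFP and 53.1 in vector, and was 2.502-fold and 2.78-fold over vector and GFP with the MYC label and 3.13-fold and 2.82-fold lower with the miR-105 label. ZFP36L1, a TTP family gene whose product promotes decay at AU-rich elements, had 177, 480, 514 and 393 CPM and was at least 2-fold lower in MYC. Of the 9 genes listed, 1 was higher and 1 lower in MYC, beside 9.03% and 10.4% of all genes, and the median log2 fold was 0.44. In miR-105 3 were higher (ELAVL1, KHSRP and HNRNPD) and 1 lower, beside 14.7% and 16.6% of all genes. The median there was 0.09 and became −0.01 when library totals alone set the scale. Of 7 genes of shedding and presentation, 0 were higher and RHBDF1 was lower in MYC, with a median of −0.32. SDC1 was higher and RHBDF1 lower in miR-105, with a median of −0.06 that became 0.18 with vector alone as control. The shares of all genes just given apply to this list too.

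The level of miR-105 itself was not analysed here. Its mature sequences from RefSeq (chromosome X, GRCh38.p14) are shown, with the seed in capitals, because microRNAs usually find their targets by pairing of the seed with the 3′ untranslated region.
hsa-miR-105-5p: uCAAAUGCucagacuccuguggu
hsa-miR-105-3p: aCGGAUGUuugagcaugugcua
The match to the first seed, GCATTTG, was found in the 3′ untranslated region of 0 of the 9 members and in 13.4% of all regions. The match to the other, ACATCCG, was found in 0 members and in 1.30% of all regions. CXCL16, the member that was lower in miR-105, has 977 bases of annotated region and did not differ from the other members in this. Whether miR-105 acts on any member was not tested. These words alone were searched, in 1 annotated transcript per gene.

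Markers of other cell types were read in the same libraries. The leukocyte marker PTPRC had 1 read in all, in GFP, and of 10 immune markers 3 reached a mean of 1 CPM, 0 of them higher with either label and 1 lower in MYC and 2 in miR-105. The summed level of the list was 29.8 CPM in MYC, 43.0 in miR-105, 99.3 in GFP and 96.1 in vector. CSF1R made up most of it in the controls, at 9.86, 20.5, 75.1 and 66.3 CPM in the same order, and was lower with both labels. CD14 was lower in miR-105, and FCGR3A had 0 reads in all libraries. ITGAM, an integrin gene of myeloid cells, had 23 reads in MYC, 0 in miR-105, 0 in GFP and 2 in vector. Fibroblast markers came to 161, 118, 211 and 216 CPM, with 0 higher and 1 lower under each label and COL3A1 at 0 reads in all libraries, and 5 erythroid genes to 0.190, 1.73, 0.361 and 0.865 CPM. Endothelial markers came to 92.2 CPM in MYC, 3.61 in miR-105, 49.6 in GFP and 46.8 in vector, through KDR at 88.9, 1.73, 33.0 and 32.6 CPM, while PECAM1 was lower with both labels and VWF had at most 6 reads. In the epithelial list 2 of 13 genes were at least 2-fold higher and 4 lower in MYC, and 3 higher and 5 lower in miR-105, with medians of −0.74 and −0.69. For all these marker lists, the shares over all genes were 9.03% higher and 10.4% lower in MYC, and 14.7% and 16.6% in miR-105. The part of the marker differences in the chemokine levels was not tested.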

How the data were processed

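Poly(A) RNA of 4 MCF10A derivatives was sequenced, 1 library per construct. TopHat2, edgeR and hg19 are named, without versions, per the submitters' processing notes. No source used here gives the read counter, annotation or strand setting. The authors deposited 1 normalised signal per gene and library, whereas the design had allowed for raw counts: the values are not whole numbers and have the form of edgeR pseudo-counts, quantile-adjusted to a common library size. Inverting that adjustment (common dispersion 0.0553, controls as 1 group) gave whole reads for 100% of 18859 values in each library, within a tolerance of 1e-05. On simulated counts for 18840 genes it returned 100% of values exactly. After 19 repeated lines were dropped, 18840 genes remained, with 6859698 to 14025115 reads per library.

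CPM used TMM factors of 1.0768 (MYC), 0.929 (miR-105), 0.987 (GFP) and 1.0122 (vector). Genes averaging 1 CPM or more were compared on the log2 scale after adding 0.5 CPM, and called when at least 2-fold past both controls. That scale understates the change of low genes; ratios printed for single genes are plain CPM ratios. A ratio to 0 reads used a floor of 3 reads per library. Without replicates of the MYC and miR-105 constructs, no test was taken as the main result. edgeR quasi-likelihood and DESeq2 on the recovered reads, with the controls as 1 group, were alternatives, beside other scalings, the deposited values, pseudocounts, filters, thresholds and each control alone. Software was R 4.3.3, edgeR 4.0.16, DESeq2 1.42.0, Python 3.11.15, SciPy 1.17.1, pandas 2.3.3 and matplotlib 3.10.9.

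All 9 members were to be named with values in every library, and from each related list the receptors of members and up to 4 called genes with the largest smaller-of-both log2 folds, with the 3 nearest genes to each member by likeness; other list genes named here were chosen after their values were seen. The members and lists were chosen with earlier results of these data known. Gene coordinates, transcript lengths and untranslated regions are from the GENCODE annotation of GRCh38, which is not the authors' build. Promoters (6 of 9 members matched: CXCL1, CXCL2, CXCL3, CXCL8, CCL20 and IL6, not CXCL16, CCL2 or LIF) and microRNAs are from RefSeq, GRCh38.p14.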

Additional observations from a re-analysis of the deposited data

How the results depend on the processing

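The main limits are 1 library per construct and few reads for CXCL3, CXCL8, CCL2 and IL6. A further limit is a MYC mRNA level only slightly above the controls with the MYC label and highest in miR-105. No paired analysis was possible because each construct has 1 library, and a control could be left out only by using vector or GFP alone. The 4 members higher in MYC stayed 4 under each scaling, pseudocount, threshold, control and count test tried; they were 5 with no filter, which lets CCL2 in, and 3 with a filter of 5 CPM, which drops CXCL3. In miR-105 the 2 members higher were 3 with GFP alone, at 1.5-fold and by edgeR, 1 with a filter of 5 CPM, 1 by DESeq2 and 0 at 4-fold, and those lower were 2 at 1.5-fold and 0 at 4-fold. Of 152 alternative member log2 folds 150 kept their sign; with vector alone, CCL20 in MYC was −0.18 and LIF in miR-105 0.08. Of 328 alternative list medians 307 kept their sign, and 86 were classed as moved from the main value. A kept sign does not mean a kept size. The median of the members in MYC, 2.66, was 1.71 with no filter and 1.54 with a filter of 5 CPM.

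At 1.5-fold, genes higher and lower numbered 2071 and 2146 in MYC, and those higher in miR-105 2997; at 4-fold they were 391 and 499 in MYC and 565 and 786 in miR-105. GFP against vector gave 1617 higher and 873 lower at 1.5-fold, 14 and 7 at 4-fold, and 264, 66, 389 and 68 lower with a pseudocount of 0.1, a pseudocount of 1, no filter and a filter of 5 CPM. Library totals alone moved the median log2 fold of all genes to 0.14 in MYC and −0.09 in miR-105. With the controls as 1 group, which leaves 1 residual degree of freedom and compares these libraries only, edgeR called 2788 genes in MYC and 4878 in miR-105 and DESeq2 1756 and 3357, of which 703 higher in MYC by DESeq2. Both tools called CXCL1, CXCL2, CXCL3 and CXCL8 higher in MYC, and CXCL2 higher and CXCL16 lower in miR-105; edgeR also called CXCL1 and CXCL3 higher there. Apart from the fewer genes left by a stricter filter or threshold, the cause was not tested.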
